A study of Bos taurus with 12 samples.

Results

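The insulin-like growth factor (IGF) genes described here are the ligand IGF1, its receptor IGF1R and the binding proteins IGFBP2, IGFBP3, IGFBP4, IGFBP5, IGFBP6 and IGFBP7. They are the 8 entries, of 19285 in the deposited count table, whose Entrez identifiers carry these bovine symbols. All 8 had an entry, and none shared an identifier with another entry. Those identifiers are 281239 (IGF1), 281848 (IGF1R), 282260 (IGFBP2), 282261 (IGFBP3), 282262 (IGFBP4), 404185 (IGFBP5), 404186 (IGFBP6) and 616368 (IGFBP7). The study sequenced mRNA from bovine embryonic stem cells, with 12 libraries split evenly over 4 groups of 3. It asks what pyruvate, and a recombinant human basic fibroblast growth factor (FGF), do for such cells when feeder layers are sparse. All 12 libraries are from 1 line, F7, labelled as wild type, so the groups show this line only. The groups are 1/7MC+Pyr+FGF (pyruvate and FGF added), 1/7MC+Pyr (pyruvate added), 1/7MC (neither added) and MC, whose treatment label is NC. The labels do not spell out MC and give neither the species of the feeder cells nor whether they were removed before RNA was taken. Whether replicates were separate cultures is not stated, so p-values cover the spread among these samples alone, which may be technical.

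IGF1 and IGF2 are secreted growth factors that bind IGF1R, a receptor tyrosine kinase, which signals through the insulin receptor substrates to PI3 kinase and AKT. In human embryonic stem cells this signal is known to support survival and self-renewal. The binding proteins hold IGFs outside the cell, where they can keep them from the receptor or carry them, and proteases that cut the binding proteins set the growth factors free. IGFBP7 binds IGFs only weakly. The roles given below are known mainly from human and mouse work.

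Transcripts of the binding proteins set 1/7MC apart from MC, whereas those of the receptor did not. IGFBP2, IGFBP4, IGFBP5, IGFBP6 and IGFBP7 were higher in 1/7MC than in MC, by 1.84-fold to 13.2-fold, and IGFBP3 was 3.60-fold lower. With pyruvate added, IGFBP3 was 2.33-fold higher than in 1/7MC, and IGFBP4 and IGFBP7 were lower. IGFBP2 and IGFBP5 were lower too, but with calls that were lost when most single libraries were left out. With FGF added on top of pyruvate, IGFBP5 alone of the 8 genes changed, a call with the same limit. IGF1R passed the test in no comparison. IGF1 was barely detected.

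Total counts ranged from 27373759 to 44440972 per library. CPM values (counts scaled to library size) below were computed from the deposited counts and scaled with TMM factors of 0.968 to 1.044, and values in a list are replicates 1, 2 and 3. The gene models used for counting differed in 2 libraries, MC replicates 2 and 3, from those of the remaining 10. For this reason calls against MC were repeated with MC replicate 1 as sole MC library, and that value is given where it ends the call or moves the fold by over 1.5 times. POU5F1, a core pluripotency factor, averaged 1150 ± 208 CPM in 1/7MC+Pyr+FGF, 1165 ± 33.9 CPM in 1/7MC+Pyr, 781 ± 96.5 CPM in 1/7MC and 1093 ± 24.4 CPM in MC (SD, n = 3 each). Summed over 26 fibroblast and feeder markers, the level was 20726 to 28609 CPM in 1/7MC+Pyr+FGF, 30478 to 45647 CPM in 1/7MC+Pyr, 25736 to 35124 CPM in 1/7MC and 9142 to 9418 CPM in MC, and no marker of the 26 was at 0 counts in any library. Summed over 18 epithelial junction genes, it was 2283 to 2583 CPM in 1/7MC+Pyr+FGF, 1897 to 1933 CPM in 1/7MC+Pyr, 1162 to 1291 CPM in 1/7MC and 2703 to 3199 CPM in MC. Much of that sum was the keratins KRT8 and KRT18, which averaged 1230 and 673 CPM in 1/7MC+Pyr+FGF and 802 and 358 CPM in 1/7MC+Pyr, whereas EPCAM and CDH1, the epithelial adhesion proteins, averaged 9.94 and 116 CPM in 1/7MC+Pyr+FGF and 20.9 and 223 CPM in 1/7MC+Pyr.

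**Figure D1:**
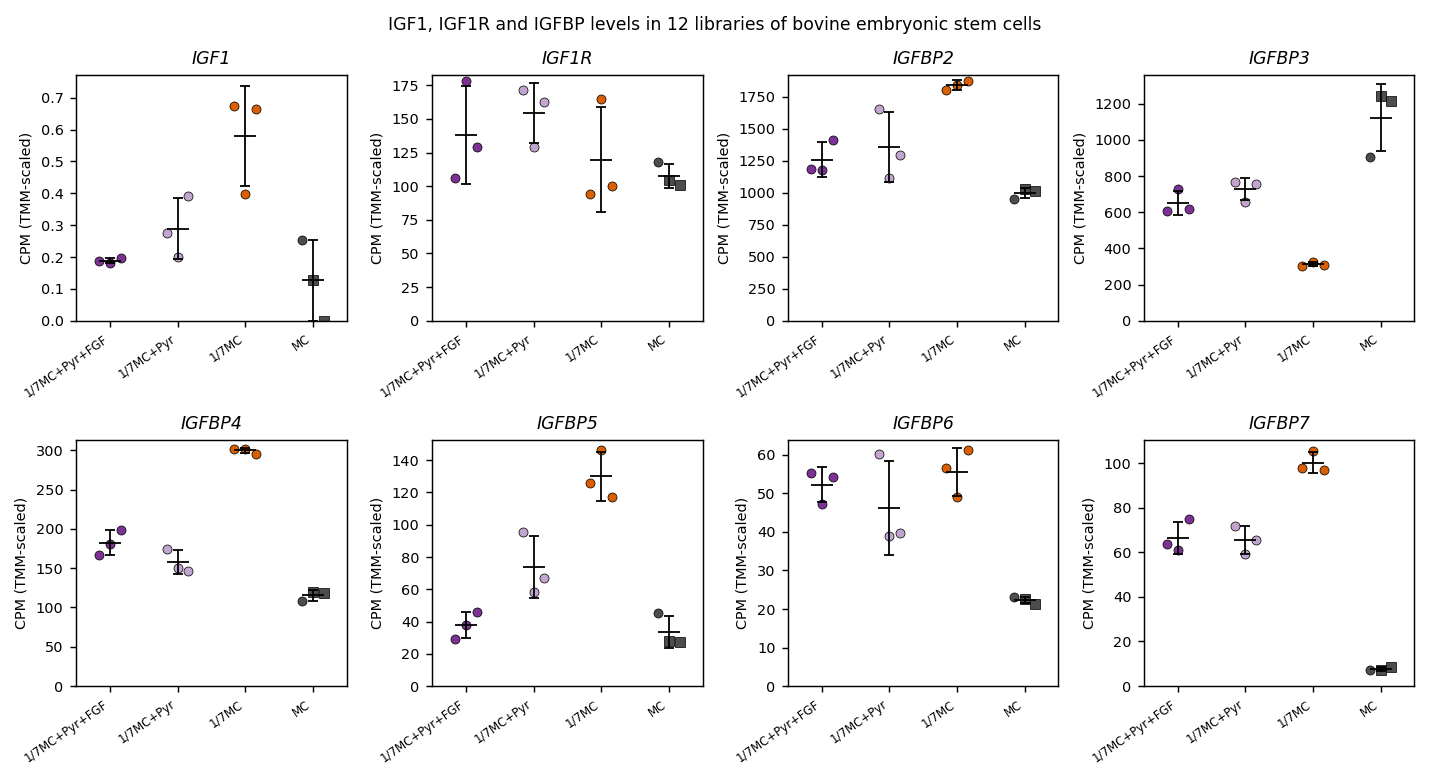
Level of each of the 8 genes in every library, as CPM on a linear axis from 0, with 1/7MC+Pyr+FGF, 1/7MC+Pyr, 1/7MC and MC from left to right in each panel. Points are libraries, squares are MC replicates 2 and 3 (other gene models), and bars are the mean ± SD of 3 libraries. IGFBP7 is at 7.03 to 8.54 CPM in MC and at 59.1 CPM or more in every other library, IGFBP3 is lowest in 1/7MC, and the IGF1R groups overlap, except 1/7MC+Pyr with MC.

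The ligand IGF1, a growth factor that liver and many connective tissues secrete, was barely detected. It had 8, 6 and 7 counts in 1/7MC+Pyr+FGF, 8, 7 and 11 counts in 1/7MC+Pyr, 20, 15 and 23 counts in 1/7MC and 9, 4 and 0 counts in MC. A count of 0 allows up to 3 counts, which is 0.0703 to 0.111 CPM in these libraries and covers counting error only. The 3 libraries of 1/7MC were above every other library, and MC replicate 3 had no read of the gene. IGF1 entered the tests through 1/7MC, whose 3 libraries all reached 0.297 CPM, the level the filter required, against 0 of 3 in 1/7MC+Pyr+FGF, 1 of 3 in 1/7MC+Pyr and 0 of 3 in MC. The log2 fold change of 1/7MC over MC was 2.06 ± 0.59 (SE; edgeR adjusted p = 0.0125), but 1.19 with adjusted p = 0.209 against MC replicate 1 alone. That of 1/7MC+Pyr+FGF over 1/7MC was -1.58 ± 0.54 (adjusted p = 0.0458), a call that was lost without any single one of the 6 libraries compared. The other 4 comparisons did not pass for IGF1, and at these counts no order of the groups can be read.

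Of the other ligands, INS, which encodes insulin, had 0 counts in all 12 libraries, which allows up to the same 0.0703 to 0.111 CPM. IGF2, a growth factor of the embryo and fetus, was abundant, with 87.7, 107 and 142 CPM in 1/7MC+Pyr+FGF, 239, 168 and 184 CPM in 1/7MC+Pyr, 540.4, 635 and 496 CPM in 1/7MC and 41.6, 41.1 and 41.6 CPM in MC. No pair of groups overlapped. The log2 fold change of 1/7MC over MC was 3.75 ± 0.19 (edgeR adjusted p = 3.35e-08), that of 1/7MC+Pyr over 1/7MC was -1.50 ± 0.17 (adjusted p = 0.000109), and that of 1/7MC+Pyr+FGF over 1/7MC+Pyr was -0.81 ± 0.17 (adjusted p = 0.0277). The last of these was lost without either of 2 libraries of each group (1/7MC+Pyr replicates 1 and 3, 1/7MC+Pyr+FGF replicates 1 and 2), with adjusted p up to 0.128.

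IGF1R, the receptor through which both IGFs act, had 106, 178 and 129.5 CPM in 1/7MC+Pyr+FGF, 172, 129 and 163 CPM in 1/7MC+Pyr, 94.2, 164 and 100.004 CPM in 1/7MC and 118, 105 and 101 CPM in MC. The spread within groups was as wide as the differences between them: replicate 2 was the highest library of both 1/7MC+Pyr+FGF and 1/7MC. The log2 fold change was 0.15 ± 0.22 in 1/7MC over MC (edgeR adjusted p = 0.603), 0.37 ± 0.22 in 1/7MC+Pyr over 1/7MC (adjusted p = 0.282) and -0.16 ± 0.22 in 1/7MC+Pyr+FGF over 1/7MC+Pyr (adjusted p = 0.707). The order of the means was 1/7MC+Pyr (155 ± 22.2 CPM), 1/7MC+Pyr+FGF (138 ± 36.6 CPM), 1/7MC (119.5 ± 39.0 CPM) and MC (108 ± 9.00 CPM; SD, n = 3 each), and no neighbours in it differed beyond their spread. The ends of that order did not overlap, but 1/7MC+Pyr over MC was 0.52 ± 0.22 with adjusted p = 0.0947. Fitted with only the 2 groups compared, that difference was 0.54 and passed (edgeR adjusted p = 0.0212). Without 1/7MC replicate 2, 1/7MC+Pyr over 1/7MC was 0.67 with adjusted p = 0.0416.

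The other receptors of this family of ligands varied among replicates in a way like that of IGF1R. IGF2R, which takes IGF2 into the cell for breakdown, had 140, 240 and 189 CPM in 1/7MC+Pyr+FGF, 277, 187 and 241 CPM in 1/7MC+Pyr, 155, 214 and 131 CPM in 1/7MC and 231, 234 and 227 CPM in MC. INSR, the insulin receptor, had 18.5, 33.5 and 26.2 CPM in 1/7MC+Pyr+FGF, 36.8, 29.5 and 34.4 CPM in 1/7MC+Pyr, 22.5, 30.7 and 22.4 CPM in 1/7MC and 29.2, 17.5 and 15.0 CPM in MC. As for IGF1R, replicate 2 was the highest library within 1/7MC+Pyr+FGF and within 1/7MC and the lowest within 1/7MC+Pyr for both genes. The same held for COL1A1, a collagen gene, and for CDH1, so the pattern was not particular to the receptors. Neither IGF2R nor INSR passed the test in any of the 6 comparisons. INSR in 1/7MC+Pyr over MC was at 0.71 (edgeR adjusted p = 0.0552) and did not pass in 14 of 16 alternatives. It passed with DESeq2 (adjusted p = 0.0243) and without MC replicate 1 (edgeR adjusted p = 0.00145). Without that library, INSR also passed over MC in 1/7MC (0.0235) and 1/7MC+Pyr+FGF (0.0211). IGF2R passed in 1/7MC over MC without 1/7MC replicate 2 (-0.70, adjusted p = 0.0211), but not in 15 of 16 alternatives.

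IGFBP2, a binding protein of the fetal circulation that many tumour and progenitor cells also make, was the most abundant of the 8 genes per kilobase of length in every group. In CPM, it had 1184, 1176 and 1415 CPM in 1/7MC+Pyr+FGF, 1653, 1116 and 1299 CPM in 1/7MC+Pyr, 1803, 1843 and 1877 CPM in 1/7MC and 951, 1027 and 1017 CPM in MC. Every 1/7MC library was above, and every MC library below, all libraries with an addition, and the groups with an addition overlapped. It rose in 1/7MC over MC by 0.88 ± 0.13 on the log2 scale (edgeR adjusted p = 0.000151) and fell in 1/7MC+Pyr+FGF against 1/7MC, with -0.55 ± 0.13 (adjusted p = 0.00773). The fall in 1/7MC+Pyr against 1/7MC, -0.44 ± 0.13 (adjusted p = 0.0323), did not pass when any 1/7MC library or 1/7MC+Pyr replicate 2 or 3 was left out (adjusted p up to 0.118). The rise in 1/7MC+Pyr over MC was 0.44 ± 0.13 (adjusted p = 0.0224). Against MC replicate 1 alone the rise was not smaller, at 0.53, but the call was lost with 1 MC library. That call was also lost without 1/7MC+Pyr replicate 1 and without either of MC replicates 2 and 3 (adjusted p up to 0.0785). In bulk RNA, fewer cells that make a transcript and less of it per cell cannot be told apart, which holds for every result here.

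IGFBP3, the main carrier of IGFs in adult blood, was the only binding protein of the 6 that was lowest in 1/7MC. It had 606, 730.1 and 618 CPM in 1/7MC+Pyr+FGF, 766, 658 and 757 CPM in 1/7MC+Pyr, 301, 324 and 311 CPM in 1/7MC and 908, 1246 and 1218 CPM in MC. All 1/7MC libraries were below, and all MC libraries above, the libraries with an addition, which overlapped with each other. The log2 fold change was -1.85 ± 0.13 in 1/7MC over MC (edgeR adjusted p = 3.63e-07), 1.22 ± 0.13 in 1/7MC+Pyr over 1/7MC (adjusted p = 4.74e-05) and 1.06 ± 0.13 in 1/7MC+Pyr+FGF over 1/7MC (adjusted p = 7.93e-05). The difference between the groups with an addition did not pass, with -0.16 ± 0.12 in 1/7MC+Pyr+FGF over 1/7MC+Pyr (adjusted p = 0.496). Against MC, 1/7MC+Pyr+FGF was at -0.79 ± 0.12 (adjusted p = 0.000587) and 1/7MC+Pyr at -0.63 ± 0.12 (adjusted p = 0.00268). Each of those calls held in 6 of 6 fits that left out 1 library. Against MC replicate 1 alone the values were smaller, at -0.50 and -0.31, and both calls were lost with 1 MC library.

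IGFBP4, which in most settings inhibits IGF action until the protease PAPPA cuts it, had the smallest standard errors of the 8 genes. It had 167, 181 and 199 CPM in 1/7MC+Pyr+FGF, 175, 151 and 147 CPM in 1/7MC+Pyr, 302, 302 and 295 CPM in 1/7MC and 108, 119.9 and 118 CPM in MC. The groups with an addition lay between 1/7MC, which was above them, and MC, which was below them. IGFBP4 was 2.60-fold higher in 1/7MC than in MC, with 1.38 ± 0.09 on the log2 scale (edgeR adjusted p = 3.46e-07). It fell in 1/7MC+Pyr against 1/7MC, with -0.93 ± 0.09 (adjusted p = 4e-05), and in 1/7MC+Pyr+FGF against 1/7MC, with -0.72 ± 0.09 (adjusted p = 0.000163). Its level stayed above MC, by 0.66 ± 0.09 in 1/7MC+Pyr+FGF (adjusted p = 0.000255) and by 0.45 ± 0.09 in 1/7MC+Pyr (adjusted p = 0.00366). These 5 calls held in every alternative setting run, and 1/7MC+Pyr+FGF over 1/7MC+Pyr was at 0.21 ± 0.09 (adjusted p = 0.247).

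IGFBP5, a binding protein of matrix-rich tissues that lies beside IGFBP2 in the RefSeq gene order, differed along the whole series of 1/7MC groups. It had 29.4, 38.1 and 45.8 CPM in 1/7MC+Pyr+FGF, 95.3, 58.5 and 67.2 CPM in 1/7MC+Pyr, 126, 146 and 117 CPM in 1/7MC and 45.1, 28.2 and 27.4 CPM in MC. The 3 groups named after 1/7MC did not overlap with each other, and 1/7MC+Pyr+FGF overlapped with MC. It was 3.87-fold higher in 1/7MC than in MC, with 1.95 ± 0.23 on the log2 scale (edgeR adjusted p = 3.05e-05). Its value was -0.82 ± 0.23 in 1/7MC+Pyr over 1/7MC (adjusted p = 0.0252), which did not pass when replicate 1 or 2 of 1/7MC, or replicate 2 or 3 of 1/7MC+Pyr, was left out (adjusted p up to 0.102). For 1/7MC+Pyr+FGF over 1/7MC+Pyr it was -0.96 ± 0.23 (adjusted p = 0.0439), which passed in only 1 of the 6 tests that left out a library, the one without 1/7MC+Pyr replicate 2 (adjusted p up to 0.196). The sum of these steps was larger: 1/7MC+Pyr+FGF over 1/7MC was at -1.78 ± 0.23 (adjusted p = 0.000163). Against MC, IGFBP5 rose in 1/7MC+Pyr by 1.13 ± 0.23 (adjusted p = 0.00315), or 0.72 with MC replicate 1 alone (adjusted p = 0.137), and 1/7MC+Pyr+FGF was at 0.17 ± 0.23 (adjusted p = 0.598), or -0.27 with MC replicate 1 alone (adjusted p = 0.55).

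IGFBP6, which prefers IGF2 to IGF1, separated MC from the other groups and did not pass between those groups. It had 55.4, 47.1 and 54.3 CPM in 1/7MC+Pyr+FGF, 60.2, 38.8 and 39.7 CPM in 1/7MC+Pyr, 56.6, 49.0 and 61.4 CPM in 1/7MC and 23.1, 22.5 and 21.4 CPM in MC. All 3 MC libraries were below the lowest of the other 9, and the other groups overlapped. Over MC, it rose by 1.23 ± 0.16 on the log2 scale in 1/7MC+Pyr+FGF (edgeR adjusted p = 0.000133), by 1.05 ± 0.16 in 1/7MC+Pyr (adjusted p = 0.00042) and by 1.32 ± 0.16 in 1/7MC (adjusted p = 3.32e-05). Between 1/7MC+Pyr and 1/7MC the value was -0.27 ± 0.16 (adjusted p = 0.273), and without 1/7MC+Pyr replicate 1 it was -0.50 (adjusted p = 0.0148). The value was 0.18 ± 0.16 in 1/7MC+Pyr+FGF over 1/7MC+Pyr (adjusted p = 0.548) and -0.09 ± 0.16 in 1/7MC+Pyr+FGF over 1/7MC (adjusted p = 0.71).

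IGFBP7, a secreted protein of vessels and stroma with weak IGF binding, had the largest difference from MC of the 8 genes. It had 63.8, 61.2 and 74.7 CPM in 1/7MC+Pyr+FGF, 71.7, 59.1 and 65.3 CPM in 1/7MC+Pyr, 97.7, 105 and 97.0 CPM in 1/7MC and 7.03, 7.25 and 8.54 CPM in MC. The 3 MC libraries were far below all others, and 1/7MC was above the groups with an addition, which overlapped. The level was 8.77-fold higher than in MC in 1/7MC+Pyr+FGF (log2 3.13 ± 0.12, edgeR adjusted p = 2.46e-08), 8.61-fold higher in 1/7MC+Pyr (3.11 ± 0.12, adjusted p = 1.28e-08) and 13.2-fold higher in 1/7MC (3.72 ± 0.12, adjusted p = 2.78e-09). It fell against 1/7MC with -0.59 ± 0.11 in 1/7MC+Pyr+FGF (adjusted p = 0.00189) and with -0.61 ± 0.11 in 1/7MC+Pyr (adjusted p = 0.00211). These 5 calls held in every alternative setting run. Between 1/7MC+Pyr+FGF and 1/7MC+Pyr the difference was 0.026 ± 0.11 (adjusted p = 0.919).

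**Figure D2:**
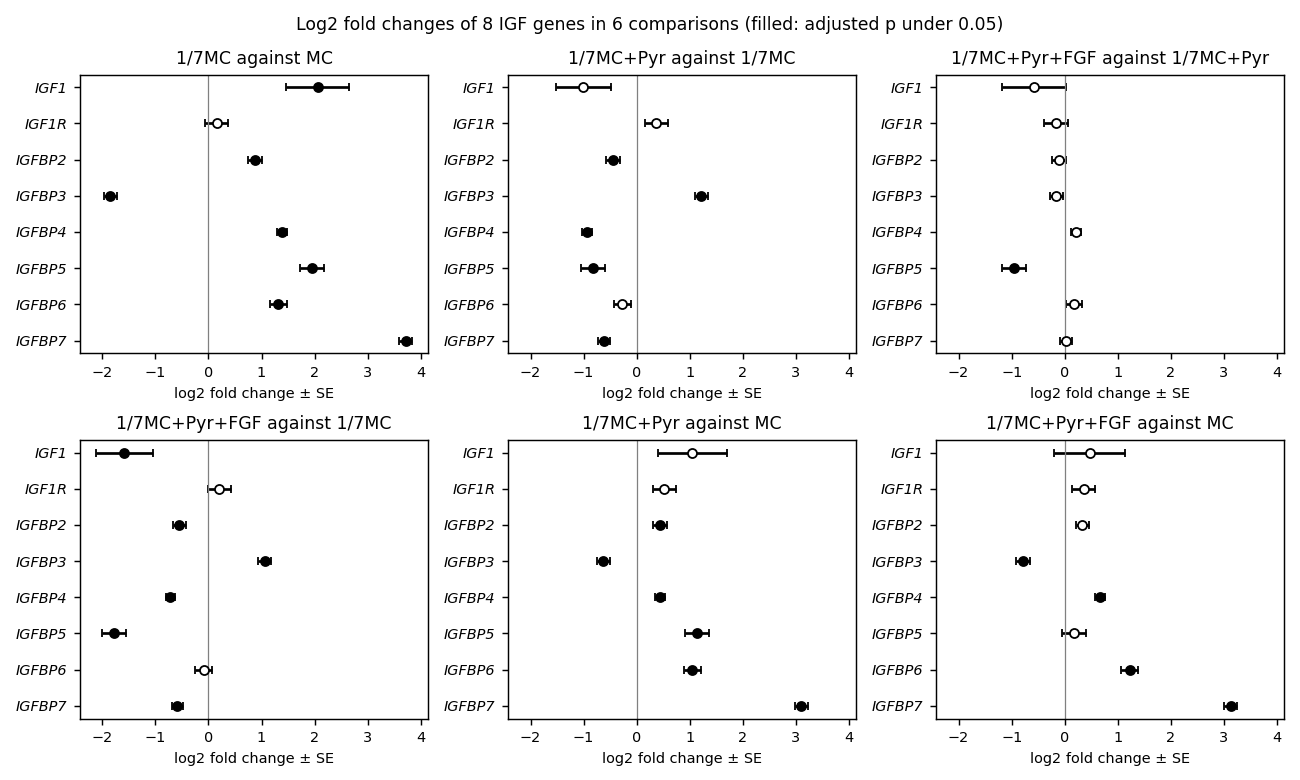
Log2 fold change of each of the 8 genes in the 6 comparisons, from the edgeR fit across all genes, with bars of 1 SE. Filled points have adjusted p under 0.05. IGFBP7 lies above 3 in each comparison with MC, IGFBP3 is the only gene that is negative in 1/7MC against MC and positive in 1/7MC+Pyr against 1/7MC with both filled, and IGF1R is never filled.

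The counts of changed genes can be read against all 13920 genes tested. IGF1 is left out of them, since it entered the tests only through 1/7MC, where it was highest. In 1/7MC against MC, 6 of the other 7 changed, 5 higher and 1 lower, beside 45.0% of all genes (23.7% higher, 21.3% lower). For 1/7MC+Pyr against 1/7MC the count was 5 of 7, 1 higher and 4 lower, beside 18.1% of all genes (8.08% higher, 10.1% lower). Between 1/7MC+Pyr+FGF and 1/7MC+Pyr, 1 of 7 changed, lower, beside 2.76% of all genes (0.639% higher, 2.12% lower). For 1/7MC+Pyr+FGF against 1/7MC it was 5 of 7, 1 higher and 4 lower, beside 27.6% of all genes (11.9% higher, 15.7% lower). Against MC, 4 of 7 changed in 1/7MC+Pyr+FGF, 3 higher and 1 lower, beside 32.5% of all genes (17.1% higher, 15.4% lower). In the same way 6 of 7 changed in 1/7MC+Pyr, 5 higher and 1 lower, beside 28.4% (15.2% higher, 13.2% lower). With MC replicate 1 alone for MC, fewer of the 7 and fewer of all genes changed in both of these groups. The comparisons share libraries, and 7 genes are few, so these shares are descriptions.

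The median log2 fold change of these 7 genes was 1.32 in 1/7MC over MC, -0.44 in 1/7MC+Pyr over 1/7MC and -0.11 in 1/7MC+Pyr+FGF over 1/7MC+Pyr. Over all genes tested the medians of the same comparisons were 0.005, -0.011 and 0.009. Markers of other cell types moved in the same comparisons. In 1/7MC over MC, all 26 fibroblast and feeder markers rose, with a median of 2.02, and 14 of 17 epithelial junction genes fell. Over 1/7MC, 1/7MC+Pyr had 6 of the 26 fibroblast markers higher and 8 lower, and 7 of 17 junction genes higher and 1 lower. With FGF added to pyruvate, 8 of 26 fibroblast markers fell, and of the 17 junction genes 2 rose and 5 fell (median -0.55). Of 13 pluripotency genes, 8 fell in 1/7MC over MC and 8 rose in 1/7MC+Pyr over 1/7MC. Of 11 neural and eye genes, 4 rose and 5 fell in 1/7MC over MC, and 1 rose and 6 fell in 1/7MC+Pyr over 1/7MC (median -1.06). Of 12 hypoblast and endoderm genes 5 were tested, and 4 of them rose in 1/7MC over MC (median 1.74), 2 fell in 1/7MC+Pyr over 1/7MC and 1 rose with FGF added. Their sum was 1430 to 1817 CPM in 1/7MC+Pyr+FGF, 1527 to 2478 CPM in 1/7MC+Pyr, 1790 to 2854 CPM in 1/7MC and 422 to 455 CPM in MC, with 2 to 4 of the 12 at 0 counts in each library, and AFP, a yolk sac and liver protein, at 0 in all. COL1A2, a collagen chain made by fibroblasts, averaged 2725 ± 442 CPM in 1/7MC+Pyr+FGF, 4849 ± 1209 CPM in 1/7MC+Pyr, 3236 ± 774 CPM in 1/7MC and 264 ± 7.62 CPM in MC, and THY1, a fibroblast surface protein, averaged 16.8 ± 1.00 CPM in 1/7MC+Pyr+FGF, 17.1 ± 5.21 CPM in 1/7MC+Pyr, 28.9 ± 2.50 CPM in 1/7MC and 3.51 ± 0.22 CPM in MC (SD, n = 3 each). The part of these other cells in the IGF results was not tested.

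Levels can be compared between genes only per length, here as CPM per kilobase of the deposited gene length. Per length, IGFBP2 led in every group, with means of 1244 CPM per kb in 1/7MC+Pyr+FGF, 1341 in 1/7MC+Pyr, 1821 in 1/7MC and 987 in MC. IGFBP3 followed, with 343 CPM per kb in 1/7MC+Pyr+FGF, 383 in 1/7MC+Pyr, 164 in 1/7MC and 592 in MC. IGFBP4 came next, with 87.4 CPM per kb in 1/7MC+Pyr+FGF, 75.4 in 1/7MC+Pyr, 144 in 1/7MC and 55.3 in MC. Below these, IGFBP7 was above IGFBP6 in the groups named after 1/7MC, with 59.2 against 42.3 CPM per kb in 1/7MC+Pyr+FGF, 58.1 against 37.4 in 1/7MC+Pyr and 88.9 against 45.1 in 1/7MC, and below it in MC, with 6.76 against 18.1. IGFBP5 had the lowest mean among IGFBP2 to IGFBP7 in every group, 6.01 to 23.3 CPM per kb, but in MC that order rested on replicates 2 and 3. In MC replicate 1, IGFBP5 was at 8.08 and IGFBP7 at 6.25 CPM per kb. IGF1R was at 31.2 CPM per kb in 1/7MC+Pyr+FGF, 34.9 in 1/7MC+Pyr, 27.0 in 1/7MC and 24.3 in MC, and IGF1 at no more than 0.0632 in any library.

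The sum over IGFBP2 to IGFBP7 had its highest mean in 1/7MC, and its make-up differed between the groups. Sums of 1/7MC and 1/7MC+Pyr overlapped, with 1/7MC+Pyr replicate 1 at 2252 CPM per kb and 1/7MC replicate 1 at 2242. Differences in the sum were not tested. The sum was 1783 ± 137 CPM per kb in 1/7MC+Pyr+FGF, 1908 ± 320 in 1/7MC+Pyr, 2286 ± 39.5 in 1/7MC and 1665 ± 141 in MC (SD, n = 3 each). IGFBP3 made up 19.3 ± 2.71% of it in 1/7MC+Pyr+FGF, 20.3 ± 2.04% in 1/7MC+Pyr, 7.18 ± 0.20% in 1/7MC and 35.4 ± 3.07% in MC. The share of IGFBP2 ran the other way, at 69.7 ± 2.56% in 1/7MC+Pyr+FGF, 70.03 ± 2.28% in 1/7MC+Pyr, 79.6 ± 0.37% in 1/7MC and 59.4 ± 2.70% in MC. IGFBP7 contributed 3.32% in 1/7MC+Pyr+FGF, 3.07% in 1/7MC+Pyr, 3.89% in 1/7MC and 0.407% in MC. Shares of 1 sum are not independent of each other, and the deposited length is 1 value per gene in all libraries although the gene models of MC replicates 2 and 3 differed.

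**Figure D3:**
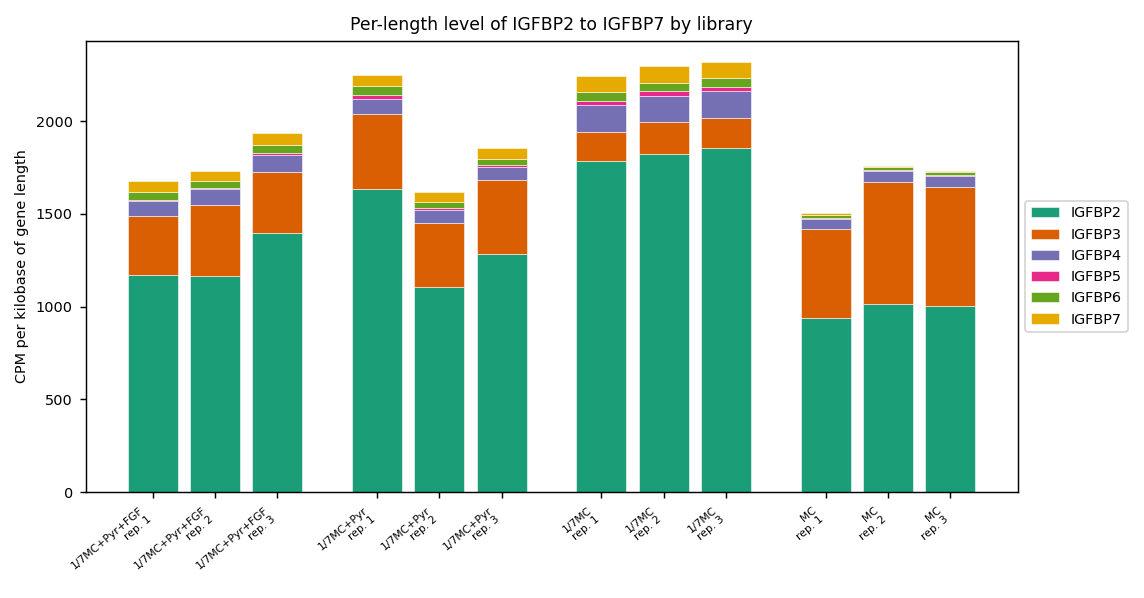
Stacked CPM per kb of IGFBP2 to IGFBP7, 1 bar per library, with 1/7MC+Pyr+FGF, 1/7MC+Pyr, 1/7MC and MC from left to right. IGFBP2 and IGFBP3 fill most of every bar, and IGFBP3 makes up 7.18% of the bar on average in 1/7MC and 35.4% in MC.

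Of 44 other genes of the pathway, 42 had an entry and 41 were tested. IRS1 and IRS2 were not analysed here, and INS had no counts. In 1/7MC over MC, 17 of the 41 rose and 8 fell, beside 23.7% and 21.3% of all genes. Over 1/7MC, 4 rose and 7 fell in 1/7MC+Pyr, beside 8.08% and 10.1%. Between 1/7MC+Pyr+FGF and 1/7MC+Pyr, 3 changed, namely IGF2, HTRA1 and FOXO1, all lower, beside 2.12% of all genes lower. For 1/7MC+Pyr+FGF over 1/7MC, 2 rose and 11 fell, beside 11.9% and 15.7%. Over MC, 10 were higher and 8 lower in 1/7MC+Pyr+FGF, beside 17.1% and 15.4%, and 13 higher and 7 lower in 1/7MC+Pyr, beside 15.2% and 13.2%. With MC replicate 1 alone for MC, fewer of the 41 and fewer of all genes changed in each comparison with MC.

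Several genes that act on the binding proteins were among those that changed. IGFALS, the acid-labile subunit that joins IGFBP3 or IGFBP5 and an IGF in a ternary complex, had 9.20, 9.59 and 16.9 CPM in 1/7MC+Pyr+FGF, 24.7, 15.3 and 18.0 CPM in 1/7MC+Pyr, 33.7, 47.8 and 40.7 CPM in 1/7MC and 4.40, 5.97 and 5.12 CPM in MC. Its 1/7MC libraries were the highest and its MC libraries the lowest, the reverse of IGFBP3. It rose in 1/7MC over MC by 2.98 ± 0.26 on the log2 scale (edgeR adjusted p = 2.4e-06) and fell in 1/7MC+Pyr against 1/7MC, with -1.08 ± 0.24 (adjusted p = 0.00875). The value for 1/7MC+Pyr+FGF over 1/7MC+Pyr was -0.70 ± 0.24 (adjusted p = 0.148).

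HTRA1, a secreted protease known to cut IGFBP5, had 35.4, 36.0 and 46.1 CPM in 1/7MC+Pyr+FGF, 139, 96.4 and 108 CPM in 1/7MC+Pyr, 114, 147 and 127 CPM in 1/7MC and 6.16, 6.90 and 7.72 CPM in MC. It rose in 1/7MC over MC by 4.22 ± 0.18 (edgeR adjusted p = 9.93e-09) and did not pass between 1/7MC+Pyr and 1/7MC, with -0.18 ± 0.15 (adjusted p = 0.487). With FGF it fell, with -1.55 ± 0.16 in 1/7MC+Pyr+FGF over 1/7MC+Pyr (adjusted p = 0.000593), and this held in all 15 alternatives. PAPPA, the protease of IGFBP4, had 4.08, 4.27 and 3.06 CPM in 1/7MC+Pyr+FGF, 4.63, 4.17 and 6.39 CPM in 1/7MC+Pyr, 10.1, 13.3 and 9.33 CPM in 1/7MC and 2.97, 1.63 and 1.08 CPM in MC. Its log2 fold change was 2.51 ± 0.31 in 1/7MC over MC (adjusted p = 4e-05; 1.89 with MC replicate 1 alone, adjusted p = 0.00077) and -1.52 ± 0.29 in 1/7MC+Pyr+FGF over 1/7MC (adjusted p = 0.00233). For 1/7MC+Pyr over 1/7MC it was -1.11 ± 0.29 (adjusted p = 0.0188), which did not pass when 1/7MC replicate 2, or replicate 1 or 2 of 1/7MC+Pyr, was left out (adjusted p up to 0.0756).

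STC2, a secreted inhibitor of PAPPA, was lower in 1/7MC than in MC and in 1/7MC+Pyr. It had 17.4, 27.1 and 13.4 CPM in 1/7MC+Pyr+FGF, 38.9, 30.0 and 39.1 CPM in 1/7MC+Pyr, 15.5, 18.2 and 15.2 CPM in 1/7MC and 35.5, 49.4 and 53.8 CPM in MC. The log2 fold change was -1.50 ± 0.23 in 1/7MC over MC (edgeR adjusted p = 0.000233) and 1.14 ± 0.23 in 1/7MC+Pyr over 1/7MC (adjusted p = 0.00484). It did not pass in 1/7MC+Pyr+FGF over 1/7MC, with 0.24 ± 0.23 (adjusted p = 0.47), nor over 1/7MC+Pyr, with -0.90 (adjusted p = 0.0594). The latter did not pass in 11 of 15 alternatives. It passed with DESeq2 (adjusted p = 0.00565), with limma on the rescaled signal (0.0409 and 0.0468) and without 1/7MC+Pyr+FGF replicate 2 (0.0171). Over MC, STC2 in 1/7MC+Pyr+FGF was at -1.26 (edgeR adjusted p = 0.00159). It was at -0.90 with MC replicate 1 alone, where the call was lost with 1 MC library. STC1, its paralog, was at 2.90 to 4.90 CPM in all libraries and passed in no comparison. ADAM12, a membrane protease that cuts IGFBP3 and IGFBP5, had 1.97, 3.09 and 3.26 CPM in 1/7MC+Pyr+FGF, 7.78, 4.51 and 7.21 CPM in 1/7MC+Pyr, 6.54, 11.5 and 7.36 CPM in 1/7MC and 0.168, 0.415 and 0.0742 CPM in MC. It rose in 1/7MC over MC by 5.23 ± 0.44 (adjusted p = 1.85e-06) and fell in 1/7MC+Pyr+FGF against 1/7MC, with -1.62 ± 0.33 (adjusted p = 0.00315). PAPPA2, another protease of IGFBP3 and IGFBP5, was at 1.30 CPM or less in every library and rose in 1/7MC over MC by 2.07 ± 0.52 (adjusted p = 0.00631, and 0.156 with MC replicate 1 alone).

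**Figure D4:**
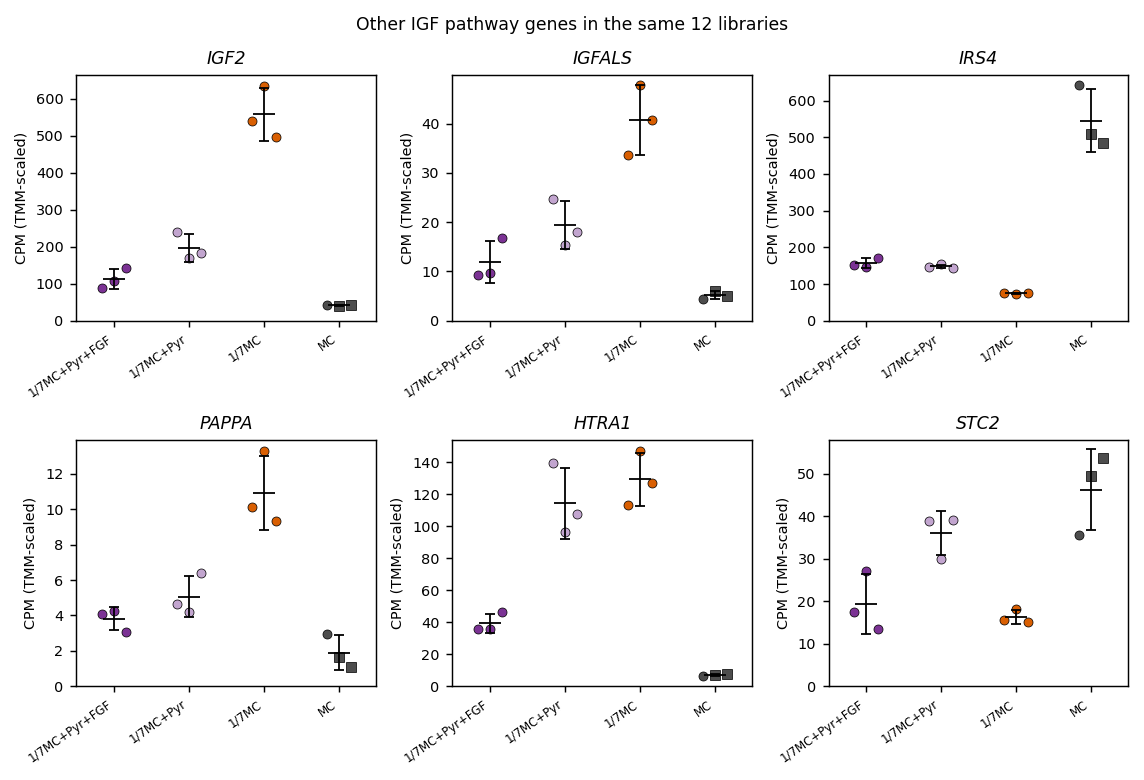
Level of IGF2, IGFALS, IRS4, PAPPA, HTRA1 and STC2 in every library, as CPM on a linear axis from 0, with 1/7MC+Pyr+FGF, 1/7MC+Pyr, 1/7MC and MC from left to right in each panel. Points are libraries, squares are MC replicates 2 and 3, and bars are the mean ± SD of 3 libraries. IGF2 and IGFALS are highest in 1/7MC, IRS4 is highest in MC, and HTRA1 is at 46.1 CPM or less in 1/7MC+Pyr+FGF and at 96.4 CPM or more in 1/7MC+Pyr and 1/7MC.

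Downstream of the receptor, IRS4, an adaptor that couples IGF1R and INSR to PI3 kinase, was the gene of the list that fell most in 1/7MC. It had 153, 147 and 172 CPM in 1/7MC+Pyr+FGF, 147, 153 and 144 CPM in 1/7MC+Pyr, 75.4, 73.4 and 76.4 CPM in 1/7MC and 642, 508 and 484 CPM in MC. The groups with an addition overlapped and lay above 1/7MC and below MC. The log2 fold change was -2.86 ± 0.11 in 1/7MC over MC (edgeR adjusted p = 8.07e-09), 0.98 ± 0.11 in 1/7MC+Pyr over 1/7MC (adjusted p = 7.55e-05) and 0.09 ± 0.11 in 1/7MC+Pyr+FGF over 1/7MC+Pyr (adjusted p = 0.676). FOXO1, a transcription factor that AKT keeps out of the nucleus, averaged 67.2 ± 14.2 CPM in 1/7MC+Pyr+FGF, 133 ± 2.71 CPM in 1/7MC+Pyr, 79.2 ± 7.06 CPM in 1/7MC and 49.5 ± 10.6 CPM in MC (SD, n = 3 each). It was highest in 1/7MC+Pyr, with 0.74 ± 0.16 over 1/7MC (adjusted p = 0.00819), and fell in 1/7MC+Pyr+FGF against it, with -0.98 ± 0.17 (adjusted p = 0.00899). FOXO3, of the same family, averaged 13.8 ± 2.92 CPM in 1/7MC+Pyr+FGF and 30.0 ± 5.22 CPM in 1/7MC, a log2 change of -1.12 ± 0.30 (adjusted p = 0.0164), which did not pass without 1/7MC replicate 2 or 1/7MC+Pyr+FGF replicate 1 (adjusted p up to 0.0679).

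GRB10, an adaptor that dampens signals of IGF1R and INSR, changed little, with 0.41 ± 0.11 in 1/7MC over MC (edgeR adjusted p = 0.0107, and 0.278 with MC replicate 1 alone). Of the RNA-binding proteins named after IGF2 mRNA, IGF2BP2 fell in 1/7MC over MC by 0.51 on the log2 scale (SE 0.08, adjusted p = 0.000225). IGF2BP3 was at -0.34 ± 0.10 (adjusted p = 0.0123), with adjusted p = 0.378 against MC replicate 1 alone. IGF2BP1, at 290.3 to 446 CPM, passed in no comparison; its 1/7MC over MC value was -0.30 ± 0.12 (adjusted p = 0.0559), or -0.55 with MC replicate 1 alone (adjusted p = 0.0149), and it also passed with DESeq2 (adjusted p = 0.0432), with the stricter filter (0.0246) and without MC replicate 3 (0.0348).

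For each gene, the 3 genes whose centred log2 CPM over the 12 libraries differed least from its own were found by the root mean square difference. For IGF1R they were NOTCH2 (0.119), LAMA1 (0.121) and FAT1 (0.127), on a scale where IGF1R itself spanned 0.92. The nearest gene to IGFBP2 was SLC2A4RG (0.0861), to IGFBP3 LRAT (0.115), to IGFBP4 CBX8 (0.111), to IGFBP5 SYNPO (0.158) and to IGFBP6 CRIP2 (0.162). IGFBP7 was closest to WLS (0.210, with its own span 3.90), a carrier protein for secreted WNT ligands, followed by FGG and ADPRHL1. IGFBP3 was followed by LOC786974 and F2RL1, IGFBP4 by TBC1D4 and RCSD1, IGFBP2 by GPSM1 and SLC4A2, IGFBP5 by RHPN1 and MAML2, and IGFBP6 by CCND3 and DUSP15. IGF1, at its low counts, had CALN1, RAB36 and HES4 nearest. All these genes share the same 12 libraries in 4 groups, and none of the 8 genes was among the 3 nearest of another. In the gene order of RefSeq assembly ARS-UCD2.0, which is not the build of the counts, IGFBP2 and IGFBP5 are neighbours, as are IGFBP3 and IGFBP1, and INS and IGF2.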

How the data were processed

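The authors deposited whole-number counts per gene, raw and without normalisation. Build bosTau9 and the tools HISAT2 2.1.0, fastp 0.19.7, featureCounts and Subread 2.0 are named, per the submitters' processing notes. Their settings and the annotation are not given in the sources used here. The protocol names no strand-marking step, so reads of overlapping and antisense genes cannot be told apart. A second deposited table, named TPM, holds a signal equal to the count divided by gene length times 4.94 in all 12 libraries, with no correction for depth, and was used rescaled as an alternative only.

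Entrez identifiers gave symbols through RefSeq (ARS-UCD2.0, another build, so no coordinates are given) for 19195 of 19285 entries. The 400 entries that share an identifier with another (1.07% to 1.40% of counts) were left out. Of the 128 shared Ensembl identifiers, 80 to 86 had differing counts in each of 10 libraries and 0 in MC replicates 2 and 3. For the 61 shared Entrez identifiers the reverse held, with 53 differing in each of MC replicates 2 and 3 but 0 in any of the remaining 10. Counting in these 2 libraries therefore used different gene models, and whether this moved the counts of the 8 genes could not be settled.

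After filterByExpr (minimum count 10), 13920 genes were tested with edgeR 4.0.16 (quasi-likelihood F test, TMM factors, all 12 libraries, 1 coefficient per group) in R 4.3.3. Benjamini-Hochberg adjustment covered every gene tested, and a gene counts as changed at an adjusted p below 0.05. A log2 fold change is that of the group named before the one it is set against, and its SE was taken as its size over the root of the F statistic. The procedure was tested on simulated data. Alternatives used DESeq2 1.42.0, limma 3.58.1 on the rescaled signal, RLE factors, other filters, only the groups compared, a replicate block, MC replicate 1 alone, and each library left out in turn. Figures used matplotlib 3.10.9 in Python 3.11.15.

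The 8 genes and all lists were chosen with earlier results of these data known. Other pathway genes named were set by a rule: ligands, receptors, proteases, inhibitors, IGF2BP genes and GRB10, plus the 3 others with the largest changes past the threshold in each comparison. No pair of replicates agreed within sampling noise (chi-square per degree of freedom at least 3.37, for MC replicates 2 and 3; MC replicate 1 was at 72.85 and 71.42 against them, and the other groups at 9.42 to 112.5).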

Additional observations from a re-analysis of the deposited data

How the results depend on the processing

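Of 735 values of the 8 genes under 22 alternative settings, 681 kept their direction and their side of the threshold, 41 kept the direction but no longer passed, 3 newly passed and 10 turned direction. No call turned direction. The cause of the changes below was not tested. When MC replicate 1 stood alone for MC, assumed to vary like the other libraries, 3438 genes changed in 1/7MC against MC, 1394 in 1/7MC+Pyr against MC and 1723 in 1/7MC+Pyr+FGF against MC, and 3 of the 8 genes changed in 1/7MC+Pyr against MC. In 1/7MC+Pyr+FGF against MC, IGF1 was then at -0.42 and IGFBP5 at -0.27. In 1/7MC+Pyr+FGF against 1/7MC+Pyr, DESeq2 called 902 genes where edgeR called 384. The rescaled signal there gave -0.075 and -0.069 for IGFBP7 (pseudocounts 0.1 and 1). It gave 0 changed genes of the 8, where DESeq2 and edgeR each called 1. Leaving out 1 library gave 1423 to 2252 changed genes in 1/7MC+Pyr against 1/7MC, 127 to 439 in 1/7MC+Pyr+FGF against 1/7MC+Pyr, 2571 to 5151 in 1/7MC+Pyr against MC and 3015 to 5337 in 1/7MC+Pyr+FGF against MC. Of the 8 genes, 3 to 6 changed in 1/7MC+Pyr against 1/7MC and 0 to 1 in 1/7MC+Pyr+FGF against 1/7MC+Pyr. Among values that had not passed, the range was -0.16 to 0.30 for IGF1R in 1/7MC against MC, -0.019 to 0.51 for IGF1R in 1/7MC+Pyr+FGF against 1/7MC, -0.025 to 1.43 for IGF1 in 1/7MC+Pyr+FGF against MC, and, in 1/7MC+Pyr+FGF against 1/7MC+Pyr, -0.23 to 0.059 for IGFBP2 and -0.064 to 0.098 for IGFBP7. The stricter filter left IGF1 out.

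Whether the replicate numbers pair the samples could not be settled. The 18 pairs with the same number had correlations of -0.316 to 0.333, 2 of them over 0.1. The 36 pairs with other numbers had -0.37 to 0.357, 7 of them over 0.1. Of 12 libraries, 3 were closest to their own number. These correlations are of deviations from means of 3 libraries, which depend on each other, so they cannot exclude pairing. With the replicate number as a block, 181 genes and 0 of the 8 changed in 1/7MC+Pyr+FGF against 1/7MC+Pyr, IGFBP5 having adjusted p = 0.0988 and IGF2 0.0774 there. Under the same block, IGFBP2 had adjusted p = 0.0502 in 1/7MC+Pyr against 1/7MC and IGF1 0.068 in 1/7MC+Pyr+FGF against 1/7MC.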

Other observations

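Outside the rule for named genes, and chosen after their values were seen, a few other members of the pathway list differed between groups. IGFBPL1, an IGFBP-like gene, averaged 7.54 CPM in 1/7MC+Pyr+FGF, 6.82 CPM in 1/7MC+Pyr, 6.32 CPM in 1/7MC and 15.2 CPM in MC, with log2 fold changes over MC of -1.01 ± 0.15 in 1/7MC+Pyr+FGF (edgeR adjusted p = 0.000301), -1.16 ± 0.15 in 1/7MC+Pyr (adjusted p = 0.000107) and -1.27 ± 0.15 in 1/7MC (adjusted p = 2.41e-05). These calls held in all 16 alternatives. IGFBP1, the remaining IGF binding protein, had 2 to 26 counts per library and passed in no comparison.

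PIK3CB and GAB1 differed in 1/7MC from each of the other groups, in opposite directions. PIK3CB, a catalytic subunit of PI3 kinase, averaged 71.3 ± 8.19 CPM in 1/7MC+Pyr+FGF, 62.1 ± 3.89 CPM in 1/7MC+Pyr, 39.1 ± 1.84 CPM in 1/7MC and 70.6 ± 3.69 CPM in MC (SD, n = 3 each). It was at -0.85 ± 0.10 in 1/7MC over MC (edgeR adjusted p = 2.34e-05), at 0.67 ± 0.10 in 1/7MC+Pyr over 1/7MC (adjusted p = 0.000619) and at 0.87 ± 0.10 in 1/7MC+Pyr+FGF over 1/7MC (adjusted p = 6.15e-05). GAB1, an adaptor of receptor tyrosine kinases, averaged 25.0 ± 3.20 CPM in 1/7MC+Pyr+FGF, 28.8 ± 0.37 CPM in 1/7MC+Pyr, 46.0 ± 2.75 CPM in 1/7MC and 27.5 ± 1.57 CPM in MC. Its log2 fold changes were 0.74 ± 0.11 in 1/7MC over MC (adjusted p = 0.000117), -0.67 ± 0.11 in 1/7MC+Pyr over 1/7MC (adjusted p = 0.000922) and -0.88 ± 0.11 in 1/7MC+Pyr+FGF over 1/7MC (adjusted p = 8.62e-05). These 6 calls held in every alternative run.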
